A study of Mus musculus with 6 samples.

Results

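A list of 10 imprinted genes was taken by symbol from a table of nuclear RNA labelling, and 9 of the 10 had a row among its 23281 genes: the noncoding RNAs Meg3 and H19, and the protein-coding genes Igf2r, Grb10, Cdkn1c, Peg3, Peg10, Snrpn and Mest. Kcnq1ot1, the long noncoding RNA of the Cdkn1c domain, was not analysed here. An imprinted gene is transcribed mainly from the allele of a single parent, because a DNA methylation mark laid down in the egg or sperm differs between the parental copies. Such genes lie in domains that often hold a noncoding RNA and its protein-coding neighbours, and many of their proteins govern fetal growth, placental development and behaviour. In embryonic stem cells the marks depend on factors that maintain them after fertilization, and they can be lost in culture.

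The cells were female mouse embryonic stem cells of the background 129S X Cast, in ES medium, with feeder cells removed by pre-plating. In all 6 samples a TetOn promoter drove the 129S allele of Xist, the noncoding RNA that silences an X chromosome, and a Bgl stem-loop sat at the 3' end of that gene. Each culture was induced with 1 µg/ml doxycycline over 17.5 to 20 h before 500 µM 4-thiouridine (4sU, a uridine analogue) was added, with doxycycline kept, for another 4 h. Medium with 50 mM uridine and doxycycline then replaced the label for 30, 60, 90, 120 or 150 min, and the 0 min sample had no washout. Nuclei were isolated, the RNA was alkylated so that incorporated 4sU is read as C in place of T (SLAM-seq), and stranded total RNA libraries were sequenced with 81 nt paired ends. The labels do not say how many clones the line comprised, no sample went without doxycycline or 4sU, and the table did not separate reads of the 129S and Cast alleles, so parental expression was not measured.

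Each washout time had 1 library, with 18558073 to 28535162 reads. Column names gave a number or none rather than a time, and each column's time was inferred by matching that number to the sample titles without their shared ending. Every slope below rests on that reading. The median gene's labelled share of reads was, in order of time, 46.8%, 45.8%, 44.5%, 39.3%, 27.7% and 21.1%. Its T>C rate, the percent of covered T positions read as C, did not follow the same order in time: it was 4.70%, 3.02%, 5.05%, 2.76%, 1.51% and 1.08%. The labelled share is therefore not a fixed multiple of the raw rate. For the 9 imprinted genes the T>C rate divided by the share was 10.1% to 11.7% in the 0 min library, 6.06% to 8.29% after 30 min, 10.3% to 13.5% after 60 min, 7.55% to 9.68% after 90 min, 5.70% to 6.96% after 120 min and 4.89% to 5.44% after 150 min.

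Because label is read only at T, a window of 3 of these RNAs is shown as an 81 nt read would hold it, with each T in capitals. For Meg3 (chr12:109545398-109545478, plus strand) and H19 (chr7:142578063-142578143, minus strand) the window is the start of the longest annotated transcript. The Meg3 gene itself begins upstream of that, at 109541001. For Igf2r (chr17:12769453-12769533, minus strand) the window is the start of the coding sequence. Each lies within a single exon of the mm10 genome in the GENCODE M21 annotation.
Meg3: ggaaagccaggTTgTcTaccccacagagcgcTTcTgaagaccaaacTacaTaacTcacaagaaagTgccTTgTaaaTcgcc
H19: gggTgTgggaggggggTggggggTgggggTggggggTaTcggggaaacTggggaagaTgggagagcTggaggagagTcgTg
Igf2r: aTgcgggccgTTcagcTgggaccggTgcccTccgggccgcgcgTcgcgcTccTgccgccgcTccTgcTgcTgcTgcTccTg
These windows hold 15, 12 and 16 convertible positions. Over the whole transcript whose length the table gives, T made up 26.1% of Meg3 (14548 nt), 20.8% of H19 (2286 nt) and 23.9% of Igf2r (8887 nt). Cdkn1c was lowest of the 9 at 17.4% (1901 nt) and Mest highest at 27.3% (2665 nt), and a read covered 14.0 to 20.8 T positions over the libraries for Cdkn1c against 24.0 to 28.0 for Mest. Between these extremes the order differed: Meg3, richer in T than Igf2r, had 18.3 to 21.8 per read and Igf2r 19.2 to 23.6. A read of Cdkn1c thus offered fewer sites at which label could be seen, and the T>C rate, unlike a count of converted reads, is already divided by them.

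Both noncoding RNAs also carry microRNA precursors, shown with the seed (bases 2 to 8) in capitals from RefSeq. The hairpin of miR-675 lies in an annotated exon of H19 and that of miR-770 in an annotated exon of Meg3. Reads of the precursors may thus count toward their hosts, though the annotation used for counting was not given in the sources used here.
miR-675-5p: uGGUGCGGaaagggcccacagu
miR-770-5p: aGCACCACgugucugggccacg
The seeds differ, and the libraries do not show the mature microRNAs, which are too short for them.

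Meg3 (ENSMUSG00000021268; mm10 chromosome 12, 109541001 to 109571726, plus strand) is the maternally expressed noncoding RNA of the Dlk1 domain. It entered the washout with the highest labelled share of the 9 genes and kept most of it. From 0 to 150 min, labelled reads made up 39.8% (38.9 to 40.7, the posterior 5% and 95% quantiles), 45.4%, 32.4%, 43.7%, 37.7% and 35.2% (33.9 to 36.6) of Meg3, on 4477 to 7120 reads per library. It was thus below the median gene at 0 min and above it from 90 min on. The slope of the natural log of the share on time was -0.05 ± 0.06 per h (SE, 6 libraries; limma adjusted p = 0.677), and its 95% interval allows a half-life no shorter than 171 min. The T>C rate of Meg3 gave 4.29%, 3.42%, 4.10%, 3.49%, 2.15% and 1.72% in order of time, a slope of -0.35 ± 0.09 per h that did not pass (limma adjusted p = 0.0584). The 95% interval of that T>C slope allows shorter half-lives, down to 60.9 min.

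H19 (ENSMUSG00000000031; chromosome 7, 142575529 to 142578143, minus strand), a maternally expressed growth-restraining noncoding RNA, stood at the other end. Its labelled share was 5.93% (5.01 to 6.91), 7.82%, 6.65%, 7.82%, 10.6% and 9.79% (7.86 to 11.9), on 912 to 1997 reads. This was the lowest share of the 9 genes in every library, and its 2 latest values were its 2 highest. The slope was 0.20 ± 0.06 per h (limma adjusted p = 0.0684). In T>C rate H19 read 0.694%, 0.648%, 0.900%, 0.757%, 0.669% and 0.524%. In 3 of the 6 libraries (0, 30 and 90 min) that rate was under the value below which 1% of tested genes lay. The other 8 genes were above that value in all libraries. With no library free of 4sU, the T>C background, which holds sequencing errors and differences of the 129S and Cast genomes from the reference, was not measured.

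The 3 maternally expressed protein-coding genes all curb growth. Igf2r (ENSMUSG00000023830; chromosome 17, 12682406 to 12769664, minus strand) encodes the receptor that carries the growth factor IGF2 to lysosomes. It had the most reads of the 9 genes, 11257 to 24397 per library, and shares of 7.92% (7.66 to 8.20), 11.8%, 7.51%, 13.6%, 12.5% and 13.6% (12.9 to 14.2). Its shares at 0 and 60 min formed a low pair and the other 4 a high group, without overlap of their posterior ranges. The T>C rate of Igf2r showed no such pairs, at 0.881%, 0.873%, 0.937%, 1.07%, 0.753% and 0.732%.

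Grb10 (ENSMUSG00000020176; chromosome 11, 11930508 to 12038683, minus strand) encodes an adaptor that dampens insulin and IGF signalling. Its share was 25.0% (22.9 to 27.1), 26.8%, 27.8%, 26.7%, 19.1% and 18.8% (14.8 to 23.1), on 336 to 1150 reads. The 2 late libraries lay under the 4 earlier ones, by point estimate. Among the 9 genes Grb10 alone had its lowest share at 150 min, as had 72.6% of the 11462 tested genes. In T>C rate it went from 2.78% to 2.07%, 2.87%, 2.20%, 1.14% and 0.960%. That slope, -0.42 ± 0.13 per h, was the single called fall in T>C rate among the 9 genes (98.9 min as a half-life, limma adjusted p = 0.0297). It was no longer called when the library of 0, 120 or 150 min was left out.

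Cdkn1c (ENSMUSG00000037664; chromosome 7, 143458339 to 143461050, minus strand) encodes the cyclin-dependent kinase inhibitor p57. It was the rarest of the 9 RNAs, with 84 to 204 reads per library. Its share was 18.4% (14.0 to 23.3), 17.6%, 16.5%, 19.03%, 23.1% and 19.4% (11.5 to 28.6). All 6 posterior ranges overlapped, so no change in the share of Cdkn1c was detectable at this depth.

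The 4 paternally expressed genes shared a saw-toothed course in which the 60 min library was lowest and the 90 min library highest, by point estimate. The maternally expressed Igf2r had the same course, so it was not particular to the paternal genes. Peg3 (ENSMUSG00000002265; chromosome 7, 6703892 to 6730431, minus strand) encodes a zinc finger protein linked to maternal behaviour and growth. Its share was 21.3% (20.5 to 22.1), 26.6%, 20.9%, 31.3%, 27.7% and 24.0% (22.5 to 25.6). Peg10 (ENSMUSG00000092035; chromosome 6, 4747306 to 4760517, plus strand), a retrotransposon-derived gene needed for the placenta, read 19.5% (18.8 to 20.2), 24.3%, 15.3%, 26.3%, 25.3% and 25.2% (23.8 to 26.7). The 0 and 60 min libraries were again its 2 lowest.

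Snrpn (ENSMUSG00000102252; chromosome 7, 59982495 to 60140219, minus strand), from the domain of Prader-Willi and Angelman syndromes, encodes a spliceosome protein. Its share was 20.1% (19.1 to 21.1), 28.6%, 12.2%, 28.6%, 25.5% and 25.3% (23.5 to 27.0). Mest (ENSMUSG00000051855; chromosome 6, 30723547 to 30748465, plus strand), which encodes a hydrolase-like protein of mesoderm, swung most of the 9 genes. Mest read 13.4% (12.8 to 14.1), 21.3%, 8.45% (7.86 to 9.06), 26.3%, 24.9% and 20.4% (19.1 to 21.8), so that its highest share was 3.11 times its lowest. That ratio was smallest for Meg3 and Cdkn1c, at 1.40 each.

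A dip at 60 min recurred in this group. Of the 9 genes, 7 had their lowest share at 60 min, as had 17.4% of all tested genes, and 5 their highest at 90 min, as had 21.4%. Grb10 went the other way, with its highest share at 60 min. Markers of fibroblast feeder cells, which may remain after pre-plating, had medians of 16.4%, 20.1%, 15.3% and 20.9% over the first 4 libraries, with the same dip. So had 10 genes listed for roles in imprinting, at 44.2%, 45.0%, 38.6% and 39.7%. The median of the embryonic stem cell markers lacked it, at 61.3%, 50.9%, 58.9% and 45.3%. Of those 10 markers 5 lost label faster and 5 slower than the median gene, so this median does not describe the slower ones. The cause of the dip was not tested. The median share of the 9 was 19.5%, 24.3%, 15.3%, 26.3%, 24.9% and 20.4% in order of time. In T>C rate the same libraries gave a median of 2.12%, 1.95%, 1.89%, 2.19%, 1.51% and 1.11%, which stayed between 1.89% and 2.19% until 90 min and was lower at 120 and 150 min.

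**Figure D1:**
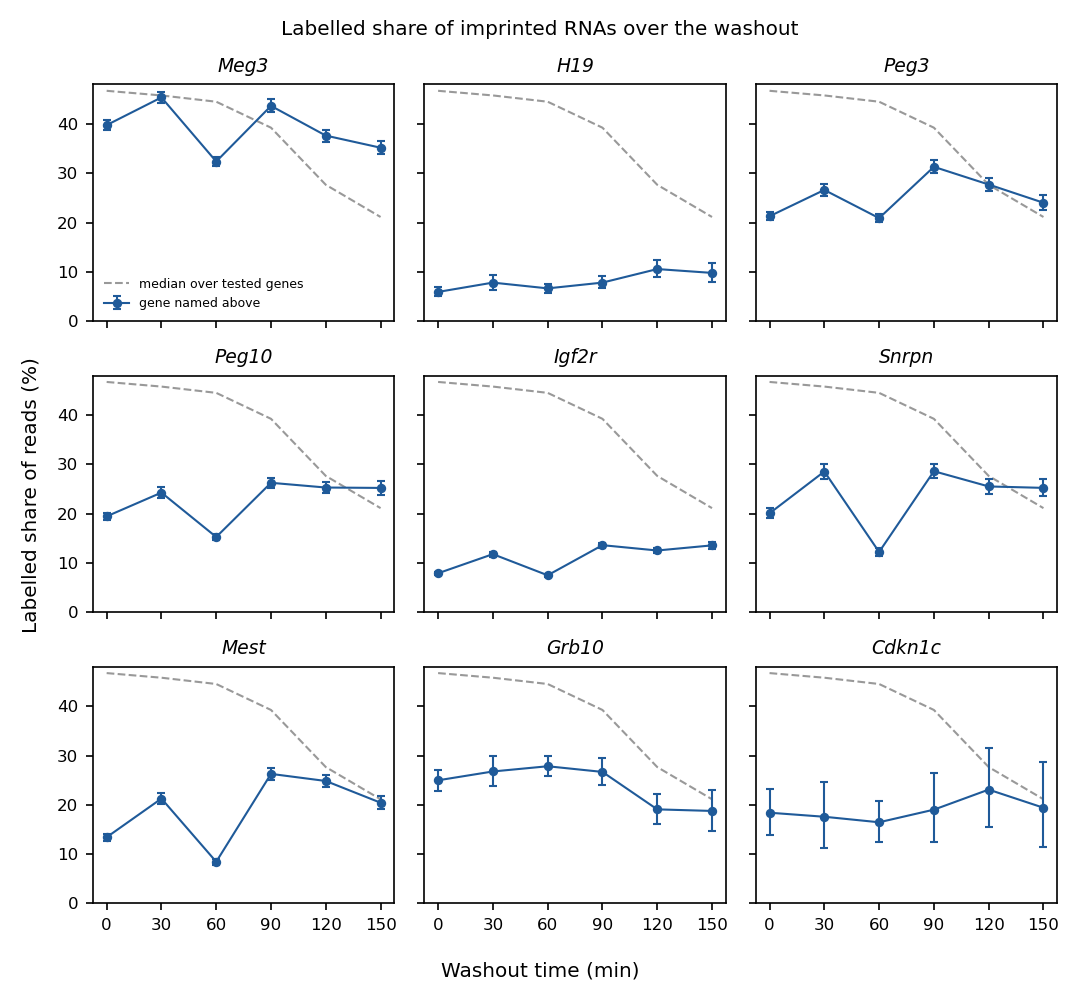
Labelled share of reads (%) against washout time (min) for the 9 imprinted genes, 1 library per point, with posterior 5% to 95% ranges as bars and the median over tested genes as a dashed line. The median line goes from 46.8% to 21.1%, whereas Meg3 goes from 39.8% to 35.2% and H19 stays under 11%.

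**Figure D2:**
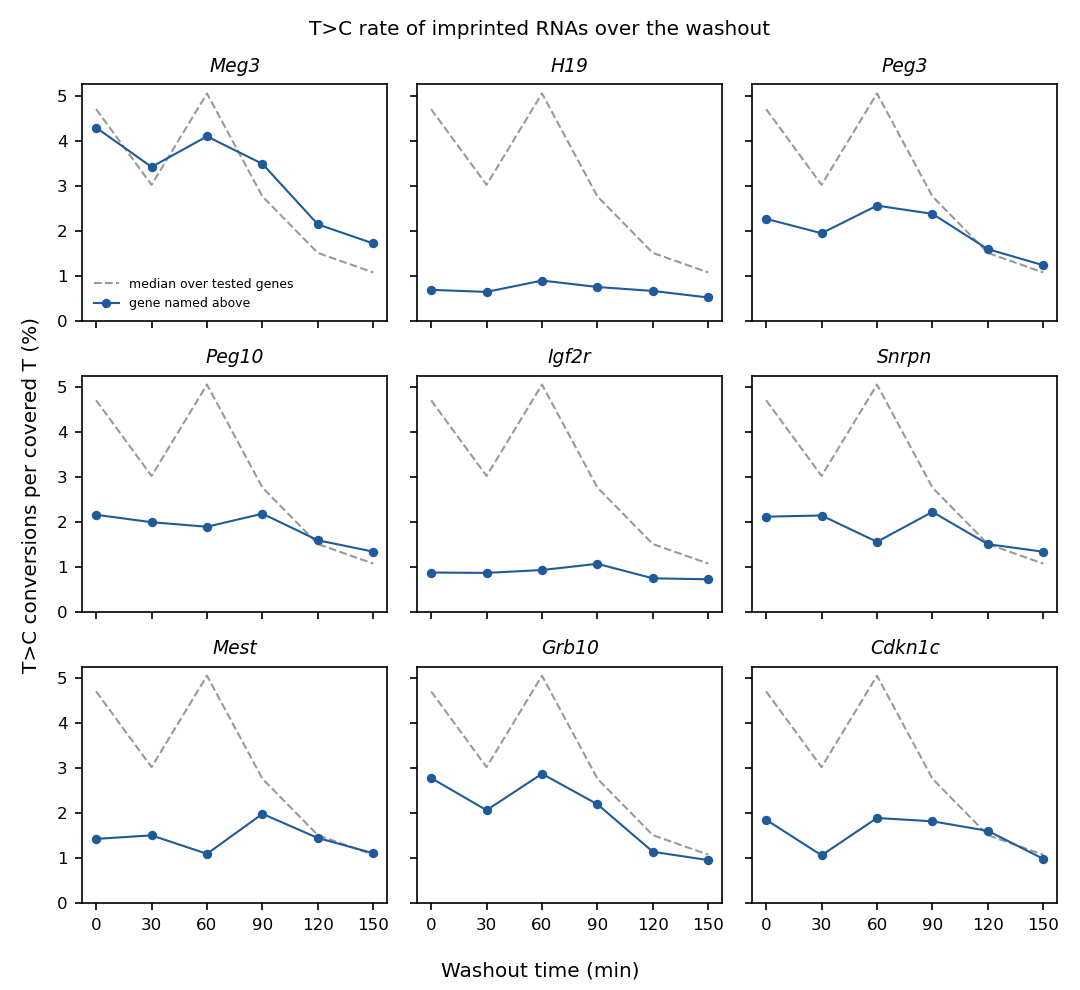
T>C conversions per covered T position (%) against washout time (min) for the same genes and libraries, with the median over tested genes dashed. The median line has a second peak at 60 min (5.05%), which Igf2r, Peg10, Snrpn and Mest lack, and all 9 genes lie lower at 150 min than at 0 min.

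At 0 min the order of the shares ran from H19 through Igf2r, Mest, Cdkn1c, Peg10, Snrpn, Peg3 and Grb10 to Meg3. The posterior ranges of neighbours overlapped from Mest to Cdkn1c, Cdkn1c to Peg10, Peg10 to Snrpn and Snrpn to Peg3, and did not overlap elsewhere. Taken as uptake during 4 h of labelling at steady state, these shares correspond to half-lives of 5.47 h for Meg3 (5.30 to 5.64), 9.64 h for Grb10, 11.6 h for Peg3, 12.4 h for Snrpn, 12.8 h for Peg10, 13.6 h for Cdkn1c (10.5 to 18.5), 19.2 h for Mest, 33.6 h for Igf2r and 45.4 h for H19 (38.7 to 53.9). By the same measure Xist had 2.93 h. Its called washout slopes gave shorter half-lives, 124 min in share (limma adjusted p = 0.00621) and 70.1 min in T>C rate (limma adjusted p = 0.00502). Xist was driven by doxycycline, and whether it was at steady state was not tested. Its total reads were 1102.5 CPM at 0 min and 1396.5 CPM at 150 min, with a slope that did not pass (edgeR adjusted p = 0.27). The uptake half-lives are descriptions of 1 library, and the ranges cover only the posterior within it. They make no allowance for growth of the cultures, which was not measured, so the longest need not be lifetimes of the RNA. For H19 the T>C rate at 0 min (0.694%) was also under the 1st percentile of tested genes (0.744%).

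The washout asked how fast label left the nuclear RNA, which covers both breakdown and export from the nucleus. None of the 9 genes passed the limma test for a fall or a rise in share over time (adjusted p = 0.0684 to 0.677), against 52.3% of the 11462 tested genes that fell and 1.19% that rose. At an unadjusted p under 0.05 the count was 1 (H19, with a positive slope). A positive slope was seen for 7 of the 9 genes (all but Meg3 and Grb10) and for 18.1% of all tested genes. The median slope was 0.09 per h for the 9 genes and -0.25 per h for all genes tested. The other slopes were -0.14 ± 0.06 per h for Grb10, 0.06 ± 0.08 for Peg3, 0.07 ± 0.05 for Cdkn1c, 0.09 ± 0.17 for Snrpn, 0.11 ± 0.10 for Peg10, 0.20 ± 0.10 for Igf2r and 0.21 ± 0.21 for Mest (SE). The 95% intervals of the share slopes allow half-lives no shorter than 124 min for Grb10, 259 min for Snrpn and 308 min for Peg3, so slower loss of label would not have been seen. Those of the T>C slopes allow shorter ones, down to 54.6, 83.0 and 76.1 min, so these bounds depend on the readout. In share, 3 of the 9 (H19, Igf2r and Mest) passed as rising if the 30 and 60 min columns were exchanged, where 4.56% of all genes did. Without the 30 min library Mest alone did, against 1.96% of genes. For labelled abundance, share multiplied by reads, Grb10 passed as falling, with a background of 47.5%. There the slopes of Peg3, Peg10 and Cdkn1c were negative (-0.032, -0.0013 and -0.10 per h), so that 4 of the 9 were positive, against 13.9% of genes.

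Tested on the T>C rate itself, 9 of the 9 slopes were negative and 1, that of Grb10, was called, against 66.9% of 11459 genes called as falling. The median slope was -0.17 per h for the 9 genes and -0.51 per h for all genes. Mest had the flattest T>C slope, -0.04 ± 0.12 per h, followed by Igf2r at -0.07 ± 0.07 and H19 at -0.08 ± 0.09. Share and rate therefore differed in direction for 7 genes, all but Meg3 and Grb10, by point estimate. Without the 150 min library the T>C slopes of H19, Mest and Cdkn1c were positive. With each library's 1st percentile of the rate subtracted as background, those of Igf2r (0.36 per h), Mest (0.13) and Cdkn1c (0.024) were positive, and H19 could not be fitted.

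Relative to the median gene of each library, which removes a deviation that most genes share, all 9 genes had a higher slope (limma adjusted p = 0.00679 to 0.0374). Of 11462 genes, 36.9% were slower in this sense and 25.2% faster. In the uncentred share none of the 9 was called as falling. Slower thus means a higher slope than that of the library medians, here and below, and not a measured loss. Over all tested genes the median of these centred slopes was 0.073 per h, not 0. The 95% interval of Grb10 (0.058 to 0.30) included that value, so Grb10 was not set apart from the middle of all genes. The difference in slope was 0.53 ± 0.22 per h for Mest, 0.52 ± 0.10 for H19, 0.52 ± 0.13 for Igf2r, 0.43 ± 0.13 for Peg10, 0.42 ± 0.19 for Snrpn, 0.39 ± 0.10 for Cdkn1c, 0.38 ± 0.08 for Peg3, 0.27 ± 0.09 for Meg3 and 0.18 ± 0.03 for Grb10 (SE). Xist, at -0.01 ± 0.04, did not differ detectably from the median gene (limma adjusted p = 0.836). On the T>C rate, 8 of the 9 were slower than the median gene, all but Grb10 (0.15 ± 0.05 per h, limma adjusted p = 0.0742), against 32.4% of genes that were slower and 24.1% that were faster. There the median over all genes was 0.061 per h. The 95% intervals of Meg3 (0.044 to 0.40) and Grb10 (0.0033 to 0.30) included it.

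These calls depend on which libraries were used, the first and the last among them. Leaving out 150 min, limma called 0 of the 9 genes slower in share, and 0% of all genes (adjusted p of the 9 from 0.0862 to 0.231). At an unadjusted p under 0.05 it counted 5 of the 9, against 23.2% of genes, and all 9 slopes stayed positive. Leaving out 0 min, 6 of the 9 were called (24.7% of genes), leaving out 120 min 6 (23.2%), and leaving out 90 min 8 (31%). On the T>C rate, limma called 0 of the 9 when 0 or 150 min was left out (0% of genes in each case) and 4 when 120 min was (17.5%). For labelled abundance, 5 of the 9 were called (25.2% of genes) and the slope of Grb10 changed sign to -0.11 per h.

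**Figure D3:**
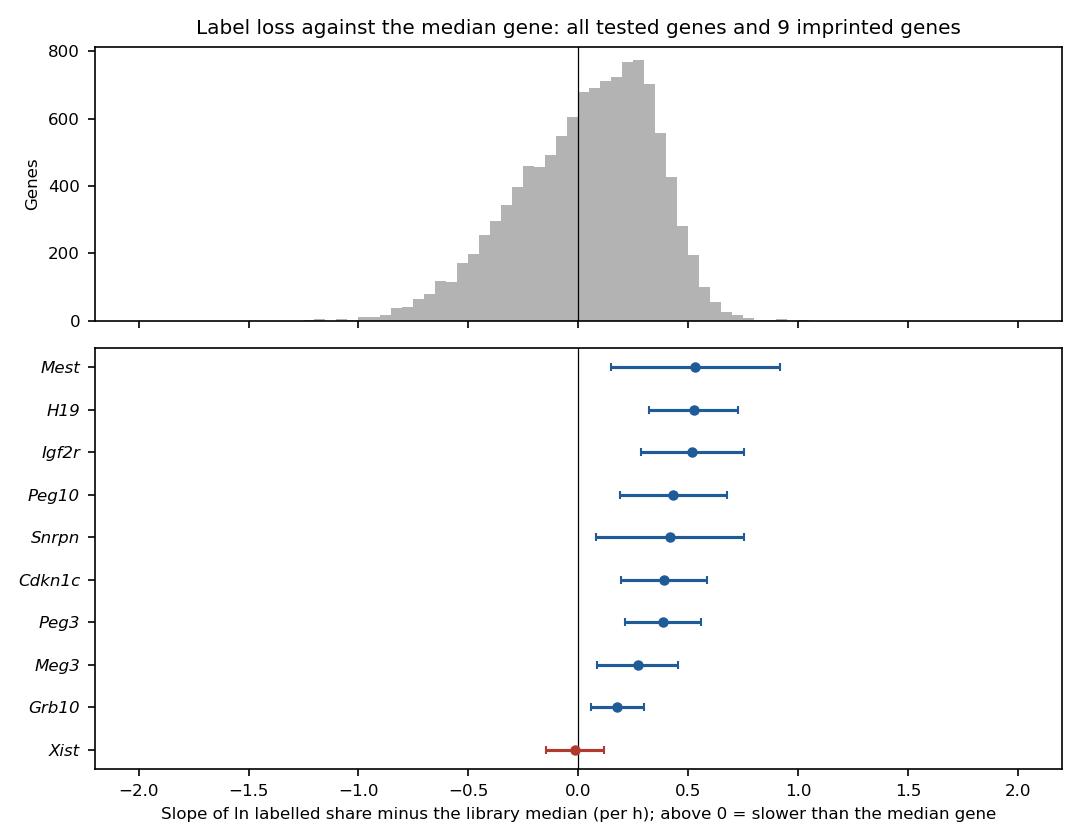
Upper panel, number of tested genes by slope of the natural log of share minus the library median (per h); lower panel, the 9 imprinted genes and Xist with 95% intervals. All 9 intervals lie above 0, from Grb10 at 0.18 to Mest at 0.53, and that of Xist spans 0.

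Total nuclear reads were the third readout. In RPKM, counts scaled to the library and to the table's transcript length so that genes can be compared, Igf2r had a level of 68.4 to 96.7 over the libraries, Mest 58.3 to 72.8, Snrpn 56.2 to 68.8, Peg10 27.6 to 40.3, H19 21.7 to 33.4, Peg3 20.2 to 26.8, Meg3 13.4 to 22.2, Grb10 3.61 to 8.69 and Cdkn1c 2.33 to 4.10. The ranges of neighbours in this order overlapped, except those of Snrpn and Peg10 and of Meg3 and Grb10. In such bulk samples fewer cells of a type and less RNA per cell cannot be told apart.

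No gene among the 9, and none of 15743 tested (0% in each direction), changed in total reads over the washout by edgeR's quasi-likelihood test after adjustment. At an unadjusted p under 0.05 edgeR counted 3 of the 9 (Grb10, Cdkn1c and Peg3), each falling, against 10.2% of genes falling and 11.5% rising. All 9 slopes were negative, where 51.1% of all genes were negative. The largest belonged to Grb10, with 35.2, 30.8, 44.0, 32.4, 22.6 and 18.3 CPM (TMM-scaled counts) from 0 to 150 min. Its 2 late libraries were below all earlier ones, and its slope was -0.37 ± 0.12 on the log2 scale per h (edgeR adjusted p = 0.131). DESeq2 called it (adjusted p = 0.0308), where it called 2.17% of genes falling and 1.96% rising. A half-life from shares takes the level as constant. Meg3 had 251, 323, 195, 200, 238 and 288 CPM, with its highest and lowest values next to each other in time and a slope of -0.02 ± 0.10, whose sign turned without the 30 min library.

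**Figure D4:**
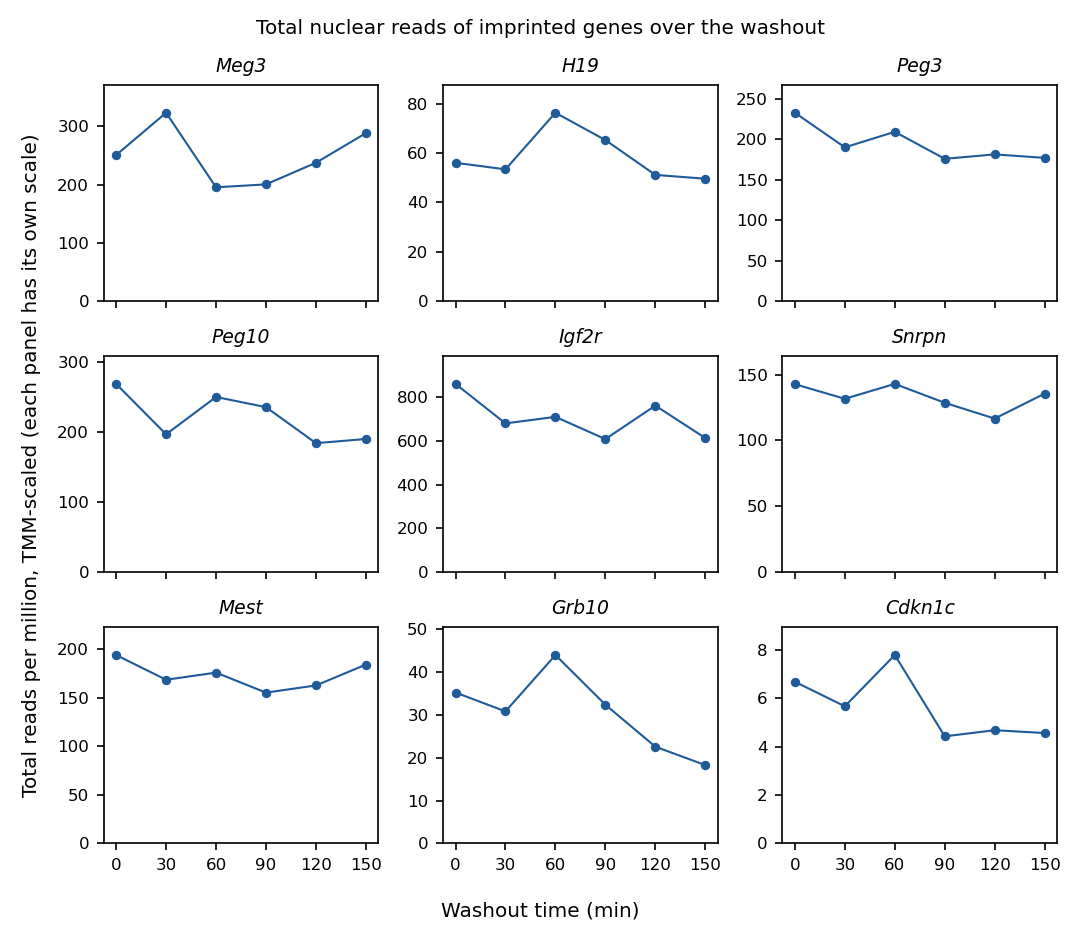
Total reads in CPM (TMM-scaled) against washout time (min) for the 9 imprinted genes, 1 library per point, each panel with its own scale from 0. Grb10 goes from 35.2 to 18.3, with a peak of 44.0 at 60 min, and Meg3 varies between 195 and 323 with no order in time.

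Cell type markers were read beside these results. Of 20 fibroblast feeder markers, all were in the table, and their summed level was 3998 to 5724 CPM over the libraries, led by Fn1 and Vim, with none at 0. Fn1 had 2248 to 3572 CPM and Vim 581 to 774, whereas the lowest, Postn, had 1.31 to 1.93. The 10 embryonic stem cell markers summed to 2866 to 3366 CPM, led by Tdgf1 and Dppa5a. Such sums follow their most abundant genes and do not measure how much RNA came from each cell type. The median share of the feeder markers went from 16.4% to 19.8% between the first and last library, and 15 of 19 tested were slower than the median gene (36.9% of all genes), with a median centred slope of 0.42 per h against 0.42 for the 9 imprinted genes. For the stem cell markers the median share went from 61.3% to 18.9%, and of the 10, 5 were slower than the median gene and 5 faster. The 2 most abundant of them were among the slower: Tdgf1 had 28.2% and 30.5% in the first and last library, and Dppa5a 8.49% and 10.4%. RNA of the listed feeder markers was thus present in every library. Its cell of origin and its part in the values of the imprinted genes were not tested. Markers of extraembryonic endoderm summed to 2.92 to 5.54 CPM, and those of trophoblast to 3.37 to 11.2. Of these, Tpbpa and Prl3d1 were at 0 in 4 libraries each, Foxa2 in 2 and Cdx2 in 1.

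Genes that neighbour each other in a domain, and Meg3 with H19, were compared as pairs by an exact two-sided permutation of the 720 orderings of the libraries, whose smallest possible p is 0.00278. Of 10 pairs listed, 4 could be computed, and none passed after adjustment over the 4. Meg3 against H19, the noncoding RNAs of 2 domains, differed in slope by -0.25 per h (exact permutation p = 0.0194, adjusted 0.0611). Peg10 and Sgce are divergently transcribed from adjoining starts and both paternally expressed. Sgce, which encodes a sarcoglycan, rose in share from 14.6% at 0 min to 21.6%, 13.04%, 28.8%, 44.7% and 34.1%, and Peg10 minus Sgce was -0.30 per h (exact permutation p = 0.0306, adjusted 0.0611). Peg3 and Usp29, another divergent pair, held 21.3% and 61.8% at 0 min and 24.0% and 20.6% at 150 min. Their difference in slope was 0.34 per h (exact permutation p = 0.108, adjusted 0.144), with only 48 to 111 reads of Usp29 per library. H19 minus Igf2, whose enhancers H19 shares, was 0.07 per h (exact permutation p = 0.792, the same after adjustment), with 36 to 72 reads of Igf2.

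Mirg, a noncoding RNA downstream of Meg3 on the same strand (chromosome 12, 109729764 to 109749460), was singled out after its values were seen, so it is described without a test against Meg3. In total reads the RNAs moved side by side: Mirg had 82.6, 102, 59.8, 64.0, 78.7 and 95.7 CPM, which was 0.306 to 0.332 of Meg3 in every library. In label they parted. The share of Mirg was 87.7%, 61.1%, 66.5%, 40.3%, 25.2% and 17.6%, so that it went from 2.20 times that of Meg3 at 0 min to 0.501 times at 150 min. Mirg passed as falling, its half-life being 65.1 min (limma adjusted p = 7.68e-05). RefSeq places 14 microRNA hairpins within Mirg.

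The 2 genes nearest to Meg3 in the 6 shares, among 7539 genes averaging 500 reads or more, were Trip4 and Htra1 (Euclidean distance of natural logs 0.0583 and 0.0882). Trip4 had a share of 38.6% at 0 min and 34.0% at 150 min. Nearest to H19 were Igfbp2 (0.216), with 5.96% and 10.2%, and Pgm2 (0.286), with 5.74% and 10.9%. H19 thus had no neighbour as close as those of Meg3.

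Of 69 further imprinted genes listed by domain, 61 were in the table and 40 had enough reads. Among these 40, 19 fell in share, 1 rose (Sgce, 0.41 ± 0.16 per h, limma adjusted p = 0.00712) and 20 did not pass, with a median slope of -0.19 per h against -0.25 for all genes and a background of 52.3% falling. In T>C rate the slope of Sgce, 0.27 ± 0.12 per h, was not called (limma adjusted p = 0.137). Its depth was low: Sgce, Igf2 and Usp29 together summed to 10.3 to 15.5 CPM over the libraries. The shortest called half-lives were 33.4 min for Mkrn3, a zinc finger gene of the Snrpn domain, 41.5 min for Zrsr1, a splicing factor relative, and 59.6 min for Zim1 of the Peg3 domain. The longest were 173 min for Trappc9, 169 min for Ppp1r9a and 141 min for Zdbf2. Relative to the median gene, 8 of the 40 were faster and 16 slower, where 25.2% and 36.9% of all genes were, so these counts lie near the background. Without the 150 min library 12 fell, where 31.1% of all genes did. Snurf, which lies within the Snrpn locus on its strand, had a slope of 0.05 ± 0.14 per h, and Copg2, which overlaps Mest on the opposite strand, 0.08 ± 0.14, and neither passed. Of 10 genes listed for roles in imprinting, 5 fell in share and 0 rose, close to the 52.3% of all genes that fell. Those that fell were the zinc finger protein genes Zfp57, Zfp445 and Zfp42, Ctcf, whose product binds the H19 control region, and Setdb1, a histone methyltransferase gene, with half-lives of 51.0 to 114 min. The other 5, Trim28, Dppa3, Dnmt1, Uhrf1 and Dnmt3l, were slower than the median gene, by 0.24 to 0.49 per h.

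**Figure D5:**
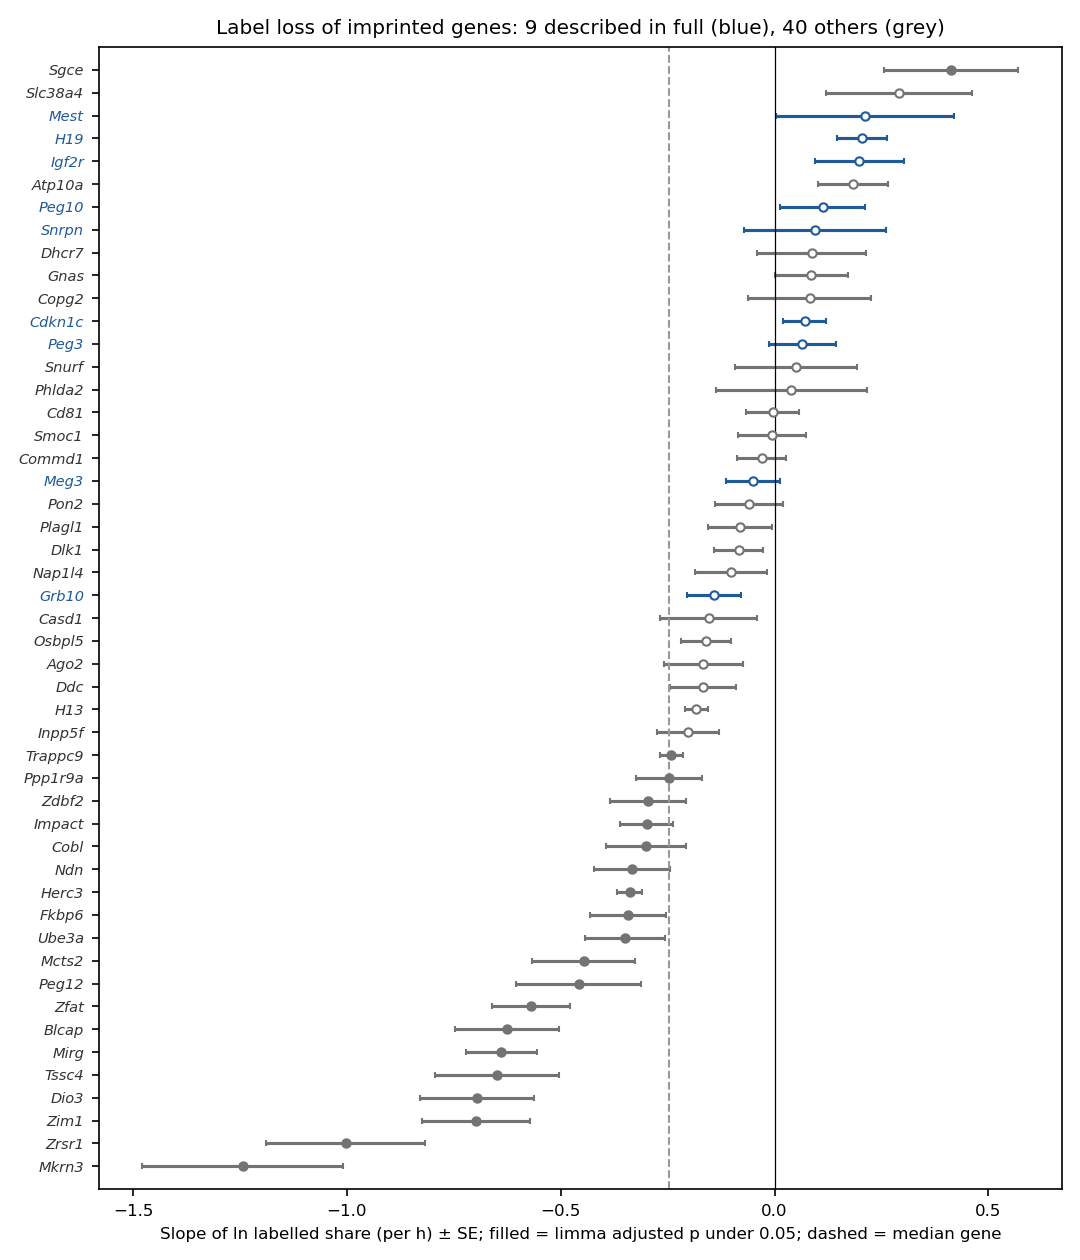
Slope of the natural log of labelled share on time (per h) with its SE for the 9 imprinted genes (blue) and 40 further imprinted genes (grey), with filled points where the limma adjusted p was under 0.05 and a dashed line at the median gene. The 9 lie at or to the right of -0.14, whereas Mkrn3 and Zrsr1 mark the left end.

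Several of these genes overlap others in the annotation, and the strand setting of the counting was not given in the sources used here. Igf2r overlaps the antisense noncoding RNA Airn, which was not analysed here, Meg3 overlaps Gm26906 on the opposite strand, and Snrpn overlaps Snurf and Gm38393 on its own strand, so that reads may be shared among them.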

How the data were processed

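Nuclear RNA from 6 samples, 1 per washout time, was aligned with STAR 2.5.2b to mm10, per the submitters' processing notes. The per-gene program, its annotation and how the conversion rate was set were not given in the sources used here. The deposited table gives, per the file headers, read counts per gene (not normalized), the labelled fraction of reads as a posterior mean with 5% and 95% quantiles, and the signal columns, conversions and coverage of T positions, to 4 significant digits. Gene IDs were matched to GENCODE M21 (23223 of 23281, 99.75%).

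The natural log of the fraction was regressed on time with limma 3.58.1 (mean of at least 100 reads, 4 residual degrees of freedom, Benjamini-Hochberg over all genes, threshold 0.05). The fit was repeated after subtracting each library's median, and on conversions over coverage. edgeR 4.0.16 tested the deposited counts (TMM, filterByExpr, quasi-likelihood), with DESeq2 1.42.0 as an alternative, in R 4.3.3. With 1 library per time, p-values measure scatter around a line in time, not a spread between cultures. The limma fit, raw and centred, and the edgeR fit were tested on simulated data with noise drawn separately for each gene. The pair test was not. Alternatives left out each library in turn, changed the scale, weights, read minimum, normalization and background, or exchanged the 30 and 60 min times. Leaving out libraries, the logit scale, labelled abundance and at least 1000 reads in the centred fit, leaving out libraries in the pairs, and the centred T>C rate were chosen after seeing the data.

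The genes and lists were chosen with earlier results of these data known. Named were the 9 genes, the partners in the pairs, the 3 shortest and 3 longest called half-lives and called rises among further imprinted genes, the 2 nearest genes to Meg3 and to H19, Xist, and the 2 most abundant genes of each main marker list. Mirg, the genes listed for roles in imprinting, Snurf, Copg2, Postn, the markers at 0 and the remaining overlapping genes were chosen after their values were seen. Sequences come from mm10 with GENCODE M21, and microRNAs from RefSeq.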

Additional observations from a re-analysis of the deposited data

How the results depend on the processing

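No paired analysis was possible because no washout time was sampled in replicate. Label loss: the number of the 9 genes that fell was 0 in every alternative except labelled abundance (1, Grb10), and the number that rose was 0 to 1 when each library was left out in turn and 3 with the 30 and 60 min times exchanged. Under labelled abundance the slopes of Peg3, Peg10 and Cdkn1c turned to -0.032, -0.0013 and -0.10 per h. Of the further imprinted genes, 12 to 20 fell when each library was left out, against 19 with all 6, and 10 with posterior weights. Those that rose numbered 1 to 2 when each library was left out, 2 with posterior weights, 0 with labelled abundance, 3 with the exchange and 2 when neither the 30 nor the 60 min library was used. Against the median gene, 0 to 9 of the 9 were slower when each library was left out and 5 with labelled abundance, where Grb10 turned to -0.11 per h. T>C rate: the number falling was 0 to 2 when each library was left out and 3 with the exchange, and the centred count was 0 to 9. The T>C slope ranged from -0.14 to 0.017 per h for H19, -0.070 to 0.061 for Mest and -0.21 to 0.050 for Cdkn1c when each library was left out. With the library's 1st percentile of the rate subtracted, Igf2r turned to 0.36, Mest to 0.13 and Cdkn1c to 0.024, and H19 could not be fitted, since 3 of its rates were under that value. Total reads: 0 to 1 fell when each library was left out, 1 with DESeq2 and 3 with the exchange. The slope ranged from -0.17 to 0.085 per h on the log2 scale for Meg3, -0.18 to 0.012 for H19 and -0.13 to 0.024 for Mest, and Meg3 turned to 0.061 with the exchange and 0.044 when neither of those libraries was used. The H19 minus Igf2 difference was -0.058 with the exchange and -0.030 to 0.19 when each library was left out. The cause of these changes was not tested. Of the alternative values for counts and pairs, 142 kept their direction and stayed within 1.5 times the count or on their side of the threshold, 24 counts moved by more and 2 differences reversed. Depth limits Igf2, Usp29, Zim1 and Cdkn1c, with 36 to 204 reads per library. Sgce was also read at low depth.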
